A study of Mus musculus with 3 samples.

Results

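The lncRNA table of this series listed 23718 transcripts, and 261 of them were RNAs that had been assembled from the reads and carried an identifier starting with MSTRG, the default prefix of the assembler StringTie. These 261 assembled lncRNAs were taken by that prefix alone, and they came from 243 assembled loci. No value of theirs was used here, but the assembly that listed them had drawn on reads of this series. The remaining transcripts came from the NONCODE catalogue (20341) and from Ensembl (3116). The libraries were 1 each of apoptotic bodies (ABs) of bone marrow macrophages (BMM-ABs), of preosteoclasts (pOC-ABs) and of mature osteoclasts (mOC-ABs), all grown from the marrow of male C57BL/6 mice aged 11 weeks. The sample labels name the cells, whereas the design text of the series speaks of ABs, the reading adopted here.

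According to the labels, BMMs were kept in M-CSF at 50 ng/mL without RANKL. The pOCs received RANKL at 100 ng/mL beside M-CSF at 30 ng/mL for 24 h, and the mOCs the same mixture for 72 h or longer. All 3 cultures were exposed to alendronate at 500 μM for 12 h to set off apoptosis, while the study's methods name staurosporine for that step and a longer RANKL exposure for mOCs. With 1 library per AB there were no replicates, so each ratio below compares libraries and not conditions, and every interval covers counting error only. Following the study, G1 denotes pOC-ABs over BMM-ABs, G2 mOC-ABs over BMM-ABs and G3 mOC-ABs over pOC-ABs. These 3 comparisons share libraries. Values given in threes stand in the order BMM, pOC, mOC for libraries and G1, G2, G3 for comparisons.

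Apoptotic bodies are membrane-bound fragments that a dying cell sheds, and they carry RNA of the parental cell. A long noncoding RNA (lncRNA) is a transcript without an apparent protein product. A transcript assembler joins overlapping aligned reads into exon chains, so that it can report RNAs that a gene catalogue does not list, including stretches inside the introns of known genes and RNAs from land between genes.

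The lncRNA and mRNA tables together held 11556957 to 12734764 reads per library. Of 10 osteoclast markers 9 were above 0, and their summed FPKM (reads divided by transcript length and by library size) was 97.4, 191 and 685. The 7 macrophage markers summed to 3669, 1857 and 1084. None of 8 neutrophil markers was above 0, and none of the B cell, T cell or erythroid markers reached an FPKM of 1. Of 6 stromal and osteoblast markers 1 did, Runx2 at 1.35 in mOC-ABs, and their sums were 0.985, 1.07 and 1.80. Calcr, the calcitonin receptor, was listed in no library, and Itgb3 and Mrc1 stayed under an FPKM of 1.

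Sequence is shown where an assembled lncRNA met an annotated start or an annotated RNA. The first 3 sequences are promoter windows of RefSeq genes (GRCm38.p6), which run from 250 bases before the gene's start toward 50 bases after it, and in which capitals mark a match on either strand to TGANTCA, a motif of AP-1 factors, or to GAGGAAG, a motif of PU.1. AP-1 and PU.1 are transcription factors needed for osteoclast formation. The Gm39608 window lies at chr11:20898695-20898994 (minus strand), the Gm34254 window at chr5:108405525-108405824 (minus strand) and the upstream part of the Nfam1 window at chr15:83033398-83033647 (minus strand). The last 2 sequences are the first and the last stretch of Rpph1, the RNA component of RNase P, from its GENCODE M21 transcript on the minus strand of GRCm38 (chr14:50807733-50807767 and chr14:50807449-50807499), where capitals mark the bases inside the span of MSTRG.14854.1.
MSTRG.6094.1 at Gm39608: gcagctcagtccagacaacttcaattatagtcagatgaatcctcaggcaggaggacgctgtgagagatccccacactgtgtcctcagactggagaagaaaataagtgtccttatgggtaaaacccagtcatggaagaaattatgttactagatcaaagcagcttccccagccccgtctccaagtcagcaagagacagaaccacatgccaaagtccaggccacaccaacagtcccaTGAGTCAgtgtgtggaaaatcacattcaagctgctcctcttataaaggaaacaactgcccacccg
MSTRG.37064.1 at Gm34254: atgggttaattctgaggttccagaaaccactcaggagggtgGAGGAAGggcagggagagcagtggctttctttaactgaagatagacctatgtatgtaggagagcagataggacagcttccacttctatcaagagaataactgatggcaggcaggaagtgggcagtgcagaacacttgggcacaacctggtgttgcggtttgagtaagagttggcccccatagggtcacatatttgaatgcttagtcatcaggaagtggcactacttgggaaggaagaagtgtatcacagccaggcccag
MSTRG.17085.1 at Nfam1: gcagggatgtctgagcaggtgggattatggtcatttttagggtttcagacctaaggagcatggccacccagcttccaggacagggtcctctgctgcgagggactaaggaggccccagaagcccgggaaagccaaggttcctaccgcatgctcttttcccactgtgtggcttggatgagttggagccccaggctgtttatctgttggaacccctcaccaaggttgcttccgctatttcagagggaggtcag
MSTRG.14854.1 at the start of Rpph1: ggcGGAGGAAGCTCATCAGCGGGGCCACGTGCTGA
MSTRG.14854.1 at the end of Rpph1: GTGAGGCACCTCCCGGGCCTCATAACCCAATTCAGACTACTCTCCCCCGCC

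One end of MSTRG.6094.1, MSTRG.37064.1 and MSTRG.17085.1 fell within 48 bases of the start of the RefSeq gene shown with it. MSTRG.6094.1 ended 48 bases inside Gm39608, a RefSeq lncRNA that GENCODE M21 does not list at this place. MSTRG.37064.1 ended 1 base before the start of Gm34254, another RefSeq lncRNA. MSTRG.17085.1 started 11 bases inside Nfam1 and ran away from it through its promoter, within the RefSeq lncRNA Gm32620. The Gm34254 and Nfam1 windows were picked after the values were seen. In all, an end of an assembled lncRNA fell in 16 of the 32817 promoter windows. GAGGAAG stood in 7 of the 16 (43.8%) against 13.6% of all windows, and TGANTCA in 2 (12.5%) against 7.81%. GGAAA, a motif of NFAT factors, stood in 12 (75%) against 61.3%, and TATAAA, the TATA box, in 2 (12.5%) against 13.6%. Windows of genes expressed in these cells were not compared apart. The 16 windows had a median GC content of 59.3%, while the median over all windows was 52.7%. A match is a description of the letters and not a binding site.

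Every assembled lncRNA was a model with a gap. Their lengths ran from 208 to 7774 bases with a median of 636, and the span on the genome exceeded the length in all 261, by 20 to 454057 bases with a median of 1062. In the same table, 55.9% of the Ensembl and 74.9% of the NONCODE lncRNAs had a span equal to their length. The excess, which is the summed intron length of the model, was under 70 bases in 48 assembled lncRNAs (18.4%), against 0.738% of the Ensembl and 1.55% of the NONCODE lncRNAs. Among 692810 introns of GENCODE M21 transcripts, 0.183% were under 70 bases and the median was 1363. Of the 48 models, 31 (64.6%) lay inside an intron of an annotated gene.

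**Figure D1:**
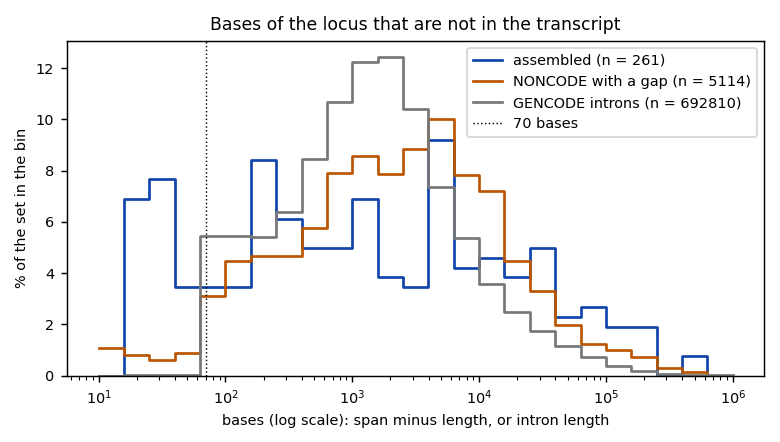
Distribution of the bases of a locus that are not in the transcript (log axis) as the percentage of each set per bin, for 261 assembled lncRNAs, for NONCODE lncRNAs with such bases and for GENCODE M21 introns. The assembled line stands above both others in the 3 bins that end before the 70-base mark and hold assembled lncRNAs.

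By locus, 66 assembled lncRNAs (25.3%) overlapped no gene of GENCODE M21, 106 (40.6%) lay in a gene without any annotated exon in their span, and 89 (34.1%) had an annotated exon in their span. These classes are called intergenic, intronic and exon-containing here. The table gives no strand, so an exon-containing or intronic lncRNA cannot be placed on the sense or the antisense side of its gene. A protein-coding gene was overlapped by 172 of the 261. A lncRNA of Ensembl or NONCODE from the same table was overlapped by 62, of which 46 were exon-containing, and 199 overlapped none. The members lay on 22 chromosomes or unplaced sequences, most often on chromosome 4 (25), chromosome 2 (21) and chromosome 5 (20). None of them overlapped a gene of the osteoclast (25 genes), macrophage (22) or apoptosis (23) lists.

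The assembled lncRNAs were a small share of the lncRNA reads, highest in BMM-ABs and lowest in mOC-ABs. They drew 8313, 6128 and 4424 reads, which was 0.229% (Wilson 95% interval 0.224% to 0.234%), 0.137% (0.133% to 0.140%) and 0.115% (0.112% to 0.118%) of the lncRNA reads. The intervals do not overlap. In such bulk libraries a lower share of ABs that carry an RNA and less of it per AB cannot be told apart. Per transcript, however, they stood above the catalogued lncRNAs, with a median FPKM of 1.95, 1.31 and 0.895 against 0.299, 0.228 and 0.151 for NONCODE and 0.394, 0.326 and 0.225 for Ensembl. Reads were found on 246, 238 and 234 of them. All 3 libraries had reads on 209 (80.1%), compared with 68.5% of the whole lncRNA table, and 13 had reads in 1 library only. A model is assembled only where reads cover it, and the part of this listing in the higher medians and the wider detection was not tested. The total over the libraries ranged from 6 to 1953 reads with a median of 40, and 69 lncRNAs had fewer than 20.

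Ratios of FPKM past 2-fold, the fold limit of the study, were counted next, and a value above 0 passed against 0. In G1, 62 of the 256 assembled lncRNAs with reads were higher (24.2%) and 103 lower (40.2%), where 22.4% and 33.1% of all lncRNAs with reads were. In G2, 39 of 258 were higher (15.1%) and 134 lower (51.9%), beside 12.4% and 48.2% of all. In G3, 51 of 256 were higher (19.9%) and 92 lower (35.9%), close to the 19% and 38.2% of all. The median log2 ratio (FPKM + 0.1) of the 261 was -0.47, -1.06 and -0.37, and over the whole table it was -0.22, -0.59 and -0.30.

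Many of these ratios rest on few reads, so the count was repeated with the further condition that the exact binomial 95% interval of the reads exclude equal levels. It left 47 higher and 82 lower in G1, with 7.41% and 13.8% of all lncRNAs passing. For G2 it left 21 and 97, with 3.22% and 19.1% of all, and for G3 it left 29 and 78, with 3.65% and 14% of all. Of the assembled lncRNAs, 18.4% and 32.0% thus passed for G1, 8.14% and 37.6% for G2, and 11.3% and 30.5% for G3. The median NONCODE lncRNA had 13 reads over the libraries against 40 for the assembled ones, and the part of this depth in the shares was not tested beyond the next values. Among lncRNAs with at least 20 reads the shares passing this condition in G1 were 18.9% and 34.7% of the assembled and 13.1% and 26.0% of all lncRNAs.

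A level over 2-fold above both other ABs was found for 77 assembled lncRNAs of BMM-ABs, for 49 of pOC-ABs and for 25 of mOC-ABs. These are 29.5%, 18.8% and 9.58% of the assembled lncRNAs, beside 22.5%, 14.9% and 5.94% of the whole table, which has the same order. Another 30 (11.5%) stayed within 2-fold over the 3 libraries, and 80 did neither. The highest FPKM fell to BMM-ABs for 126, to pOC-ABs for 88 and to mOC-ABs for 47.

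The locus classes differed in their levels. Intronic lncRNAs were mostly lower in both osteoclast-lineage ABs than in BMM-ABs, with 66 of 106 lower and 17 higher in G1 and 74 of 105 lower and 7 higher in G2. That is 62.3% lower and 16.0% higher in G1 and 70.5% and 6.67% in G2, where intronic NONCODE lncRNAs had 44.0% and 11.6%, and 59.6% and 6.31%. Among those with at least 20 reads, 63.6% of the assembled and 46.2% of the NONCODE ones were lower in G1. In G2 these shares were close, at 67.5% and 63.5%. The shares higher were 11.7% and 4.27% in G1 and 3.90% and 1.07% in G2. Between pOC-ABs and mOC-ABs, 25 of 105 intronic assembled lncRNAs were lower, 17 higher and 63 within 2-fold. Their median log2 ratios were -1.36, -1.48 and -0.12, and for the 5165 intronic NONCODE lncRNAs they were -0.60, -0.89 and -0.27. The intronic class held 3958 of the member reads in BMM-ABs (47.6%) and 1832 (29.9%) and 1355 (30.6%) in pOC-ABs and mOC-ABs.

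Intergenic lncRNAs were more often higher than lower in G1. There, 24 of 66 were higher and 14 lower, whereas in G3 34 of 64 were lower and 14 higher, and G2 had 13 higher and 26 lower of 65. Intergenic NONCODE lncRNAs were near these shares, with 30.4% higher in G1 against 36.4% of the assembled ones and 49.3% lower in G3 against 53.1%. Over all 66 the median log2 ratios were 0.19, -0.61 and -0.99, beside 0.02, -0.58 and -0.50 for all intergenic NONCODE lncRNAs. Exon-containing lncRNAs moved in both directions, with 21, 19 and 20 higher, 23, 34 and 33 lower, and medians of 0.03, -0.56 and -0.36. Exon-containing NONCODE lncRNAs lay near this, with 22.9%, 13.9% and 18.9% higher against 25%, 21.6% and 23.0% here, 28.7%, 41.0% and 35.1% lower against 27.4%, 38.6% and 37.9%, and medians of -0.06, -0.42 and -0.22. The classes also differed in AB-restricted levels. Of the lncRNAs over 2-fold above both others, 56 of the 77 in BMM-ABs were intronic, against 15 of 49 in pOC-ABs and 3 of 25 in mOC-ABs. These intronic counts are 52.8%, 14.2% and 2.83% of the intronic assembled lncRNAs, beside 31.4%, 7.61% and 3.14% of the intronic NONCODE ones. Among intergenic lncRNAs the shares were 10.6%, 27.3% and 15.2%, beside 21.4%, 21.9% and 6.21% of NONCODE. Exon-containing ones had 15.7%, 18% and 13.5%, beside 18.7%, 14.8% and 6.9%. A stretch can be assembled through 1 library in which its reads are many. Such listing can raise the AB-restricted shares of assembled lncRNAs, and its part was not tested.

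**Figure D2:**
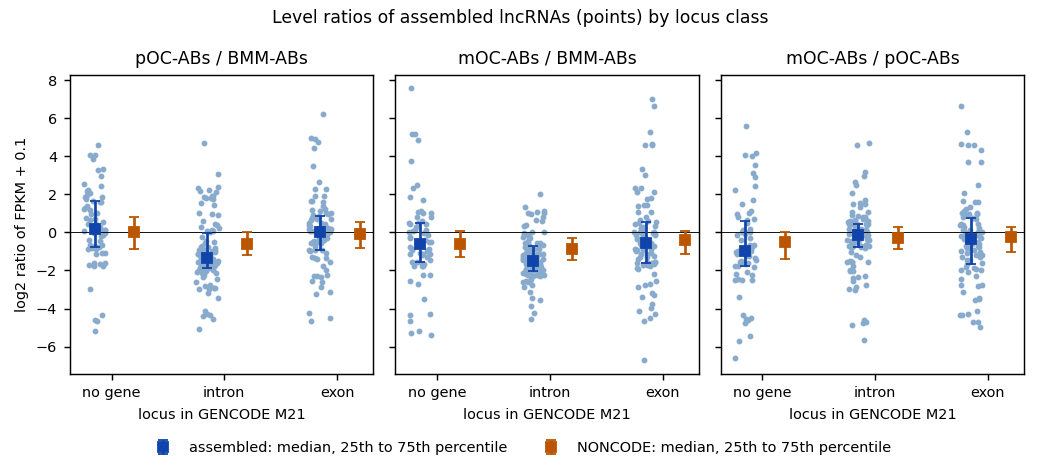
Log2 ratio of FPKM + 0.1 in G1, G2 and G3 for each assembled lncRNA (points) by locus class, with the median and the 25th to 75th percentile of the assembled (blue) and NONCODE lncRNAs (orange). Intronic assembled lncRNAs had medians of -1.36 and -1.48 in G1 and G2, under the medians of -0.60 and -0.89 of intronic NONCODE lncRNAs.

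For 95 of the intronic lncRNAs the mRNA table measured the protein-coding gene around them, 82 genes in all. Fewer of the genes than of the lncRNAs inside them were past 2-fold, in either direction. The lncRNAs, unlike the genes, were listed through assembly from reads of this series, and the part of this in the counts was not tested. Of the 95 lncRNAs 61 were lower past 2-fold in G1 by FPKM, while 6 genes were, and in G2 the counts were 69 lncRNAs and 7 genes. By FPKM, 57 of the 61 and 63 of the 69 lay in a gene within 2-fold. In G3 21 lncRNAs and 2 genes were lower. Past 2-fold higher by FPKM were 14, 5 and 15 lncRNAs beside 2, 2 and 4 genes. The intronic class had a median of 35 reads over the libraries, and the part of this depth in the counts was not tested. The median log2 ratio of the genes was -0.32, -0.28 and 0.04 by FPKM. The 2 tables scale FPKM to different totals, and with reads over the same library totals the gene medians were -0.51, -0.37 and 0.17. On that scale 17, 11 and 1 genes were lower past 2-fold beside 61, 69 and 21 lncRNAs, and 45 of the 61, 59 of the 69 and 19 of the 21 lay in a gene within 2-fold. Likewise the lncRNA lay below its gene in 73 of 95 pairs in G1, 78 in G2 and 61 in G3. Across the 95 pairs, which share libraries and may share reads, the Spearman correlation of the FPKM ratios was 0.11, 0.30 and 0.29 for G1, G2 and G3, given as a description.

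**Figure D3:**
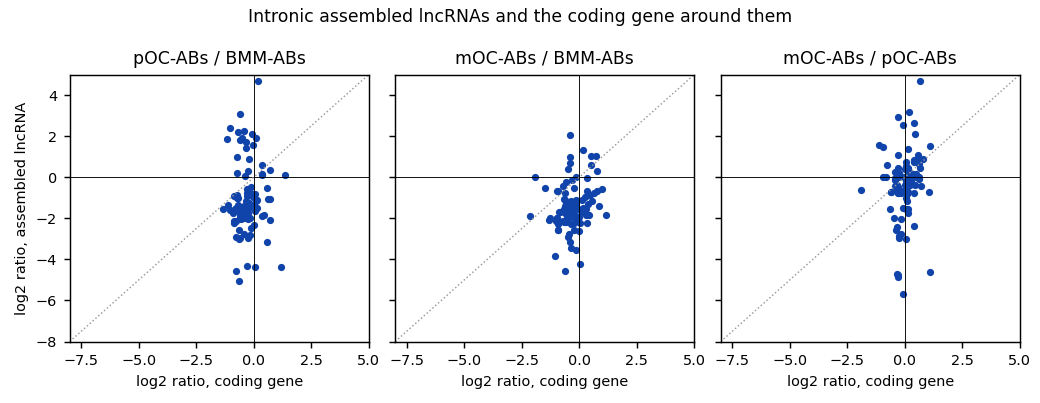
Log2 FPKM ratio of 95 intronic assembled lncRNAs (vertical) against that of the protein-coding gene around them (horizontal) in G1, G2 and G3, with the dotted line at equal ratios. Most points lie below that line, 76 of 95 in G1, 78 in G2 and 58 in G3.

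Of the measured protein-coding genes, 9 held more than 1 intronic lncRNA, and the lncRNAs of a gene were looked at together. Cadm1, which encodes a cell adhesion molecule, held 3, at chr9:47670270-47673189, chr9:47716877-47721872 and chr9:47824105-47826446. Together they drew 425, 102 and 87 reads, and the gene itself drew 1716, 751 and 747. The lncRNAs were thus lower in pOC-ABs by a log2 ratio of -1.96 (95% interval -2.28 to -1.64) and the gene by -1.09 (-1.22 to -0.97), and the intervals do not overlap.

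Ptprj, a receptor tyrosine phosphatase gene, also held 3 (chr2:90522811-90575998 in all). They drew 262, 73 and 94 reads and the gene 1645, 718 and 992, so that the G1 log2 ratio was -1.74 (-2.14 to -1.36) for the lncRNAs and -1.09 (-1.22 to -0.97) for the gene. One of the 3, MSTRG.27008.1, went its own way with 13, 2 and 16 reads, its mOC-ABs level being no lower than that in BMM-ABs.

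Cdk14, a cyclin-dependent kinase gene, held 4, and 2 of them, MSTRG.35467.1 and MSTRG.35459.1, were among the 5 lncRNAs most restricted to BMM-ABs. MSTRG.35467.1 (chr5:5365876-5367475) had 68, 9 and 9 reads and MSTRG.35459.1 (chr5:4985694-4999525) 25, 2 and 3. All 4 together gave 116, 13 and 16 reads, a G1 log2 ratio of -3.06 (-4.01 to -2.23), beside -0.41 (-0.52 to -0.30) for the gene.

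In Eri3, an exonuclease gene, and in Fndc3b the gene was not lower in mOC-ABs than in BMM-ABs. The same held for Rere, whose lncRNAs had fewer reads (35, 19 and 25). For Eya3, whose lncRNAs had 22, 6 and 16 reads, the 2 scales differed. The gene was not lower in mOC-ABs by reads (665, 648 and 902) but was lower by FPKM (38.9, 57.8 and 29.7). The 2 lncRNAs in Eri3 had 223, 73 and 62 reads and a G2 log2 ratio of -1.71 (-2.14 to -1.29), while the gene had 729, 610 and 754 reads and a ratio of 0.19 (0.04 to 0.34). The 2 in Fndc3b had 242, 113 and 90 reads and a G2 ratio of -1.29 (-1.65 to -0.93), and the gene 1747, 1406 and 2002 reads and 0.34 (0.24 to 0.43). MSTRG.29547.1 (chr3:27702448-27710291) in Fndc3b was the longest assembled lncRNA at 7774 bases and alone had 192, 90 and 66 reads. Asph and Eif4g3 complete the 9 genes. The lncRNAs in Asph had 51, 13 and 14 reads, and their G1 interval (-2.87 to -0.97) overlaps that of the gene (-1.22 to -0.98). Those in Eif4g3 had 23, 3 and 4 reads and a G1 interval of -5.22 to -1.11, beside -0.84 to -0.65 for the gene.

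Other intronic lncRNAs lay in genes with known parts in myeloid cells, a choice made after seeing their values. MSTRG.19375.1 in Runx1, a blood transcription factor gene, had 103, 31 and 21 reads, and the gene was lower as well. Runx1 had 1788, 777 and 615 reads and an FPKM of 66.6, 32.9 and 26.7. MSTRG.40285.1 in Mitf, a transcription factor gene needed for osteoclasts, had 85, 29 and 45 reads. Mitf itself had 736, 700 and 932 reads and an FPKM of 27.3, 27.5 and 42.1. MSTRG.50152.1 in Tgfbr2, a TGF-β receptor gene, had 97, 24 and 17 reads. The gene was lower as well, with 2401, 898 and 1325 reads and an FPKM of 43.7, 28.5 and 29.1.

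A few intronic lncRNAs ran against the class. MSTRG.7055.1 in Gas7, singled out in the same way, had 21, 96 and 82 reads. Gas7 itself had 13688, 8641 and 8855 reads and an FPKM of 418, 312 and 320. MSTRG.15045.1 (chr14:55695040-55697416), within the lncRNA gene Gm49067, had 64, 210 and 49 reads, a pOC-ABs level 3.52-fold that of BMM-ABs and 4.17-fold that of mOC-ABs. MSTRG.46968.1 (chr8:111029805-111030638) in Ddx19b, an RNA helicase gene, had 11, 48 and 0 reads. It was 4.68-fold higher in pOC-ABs than in BMM-ABs. Against mOC-ABs it was 15.6-fold higher with the 0 reads set to 3, and the G3 interval lay below a log2 ratio of -3.61. Ddx19b had 538, 417 and 410 reads.

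MSTRG.30425.1 (chr3:79508836-79510684) in Fnip2, with 196, 53 and 39 reads, and MSTRG.33862.1 (chr4:117555891-117560492) in Eri3, with 178, 55 and 52, were among the 10 members with the most reads and both were lower, like most of the class. The former was 3.45-fold lower in pOC-ABs and 4.56-fold lower in mOC-ABs than in BMM-ABs. MSTRG.13597.1 (chr13:102729321-102733470), which spans an exon of Cd180 or Mast4, had 164, 54 and 58 reads. Cd180, a Toll-like receptor relative of B cells and macrophages, had 1160, 832 and 734 reads and an FPKM of 54.1, 45.1 and 41.6.

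Among intergenic lncRNAs, 30 of 66 lay within 5000 bases of a GENCODE gene, 23 of them before its start and 7 after its end, and the median distance was 6256.5 bases (64 to 100944). RefSeq listed a gene at 20 of the 66, which was a lncRNA for 10. The most abundant assembled lncRNA of all belonged here. MSTRG.21002.1 (chr17:35479408-35479823, 385 bases), 4845 bases past the end of the MHC class I gene H2-Q10, had 944, 533 and 476 reads, or an FPKM of 192, 117 and 107, and 10.4% of all reads on assembled lncRNAs. It was 1.65-fold lower in pOC-ABs (G1 log2 ratio of reads -0.72, interval -0.88 to -0.57) and 1.80-fold lower in mOC-ABs (G2 -0.85, -1.01 to -0.69) than in BMM-ABs. In G3 the interval of -0.31 to 0.06 includes equal levels. Its summed intron length was 31 bases.

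MSTRG.38659.1 (chr6:5320128-5321683), inside the RefSeq lncRNA Gm52887, was the steadiest of the abundant ones at 98, 101 and 108 reads, and the intervals of its 3 ratios all include equal levels. MSTRG.14776.1 (chr14:47351211-47354006), inside the RefSeq lncRNA Gm41147 and 13745 bases before Lgals3, the gene of galectin-3, had 45, 199 and 59 reads and peaked in pOC-ABs. That level was 4.75-fold that of BMM-ABs and 3.28-fold that of mOC-ABs. MSTRG.19334.1 (chr16:92031084-92039640) had 76, 78 and 36 reads and was 2.11-fold lower in mOC-ABs than in pOC-ABs (G3 log2 ratio of reads -1.08, interval -1.69 to -0.49).

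Lowest in BMM-ABs and highest in mOC-ABs were 5 lncRNAs that the rule for AB-restricted members picked. MSTRG.6094.1 (chr11:20894666-20898696), which has an end 48 bases inside Gm39608, had 0, 13 and 81 reads. In mOC-ABs it was 29.8-fold higher than in BMM-ABs with the 0 reads set to 3 (G2 interval above a log2 ratio of 4.56). It was 6.40-fold higher than in pOC-ABs (G3 log2 ratio of reads 2.68, interval 1.82 to 3.65). MSTRG.26895.1 (chr2:79122728-79123367), over the RefSeq lncRNA Gm35748, had 0, 7 and 83 reads. It was 30.5-fold higher than in BMM-ABs in the same way (G2 interval above 4.60) and 12.2-fold higher than in pOC-ABs. The remaining ones were sparser. MSTRG.5311.1 (chr10:118565194-118596178), 8669 bases before Ifngas1, a lncRNA gene next to the interferon gamma gene, had 0, 2 and 18 reads, and MSTRG.33022.1 (chr4:55117199-55281881) 0, 0 and 21.

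MSTRG.14854.1 (chr14:50807448-50807764) was the fifth, with 0, 0 and 34 reads. Its span covered 316 of the 319 bases of Rpph1, whose ends are printed above, and the model left out 20 bases of that span. The Ensembl transcript of Rpph1 in the same table had 134034, 415180 and 227705 reads. The 34 reads were therefore a small part of those on the locus, and the NONCODE transcript there had 4, 5 and 6. How the counting shared reads among the 3 models is not given in the sources used here, so the value of MSTRG.14854.1 is uncertain.

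In pOC-ABs the restricted ones, beside MSTRG.46968.1, were 3 intergenic lncRNAs and 1 exon-containing one. MSTRG.4849.1 (chr10:86676493-86682116) had 2, 37 and 0 reads, a G1 log2 ratio with an interval of 2.36 to 7.41. MSTRG.9669.1 (chr12:17510298-17510953), 33841 bases before Odc1, the gene of ornithine decarboxylase, had 5, 31 and 5 reads and was 6.65-fold higher than in BMM-ABs and 6.04-fold higher than in mOC-ABs. MSTRG.764.3 (chr1:62690187-62691387), 11898 bases before Nrp2, the gene of neuropilin-2, had 2, 26 and 5 reads with a G1 interval of 1.80 to 6.92 and a G3 interval of -4.08 to -0.94. MSTRG.37183.1 (chr5:109752059-109797381) had 1, 20 and 1, and its intervals exclude equal levels in G1 (1.78 to 9.80) and in G3 (-9.66 to -1.64).

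**Figure D4:**
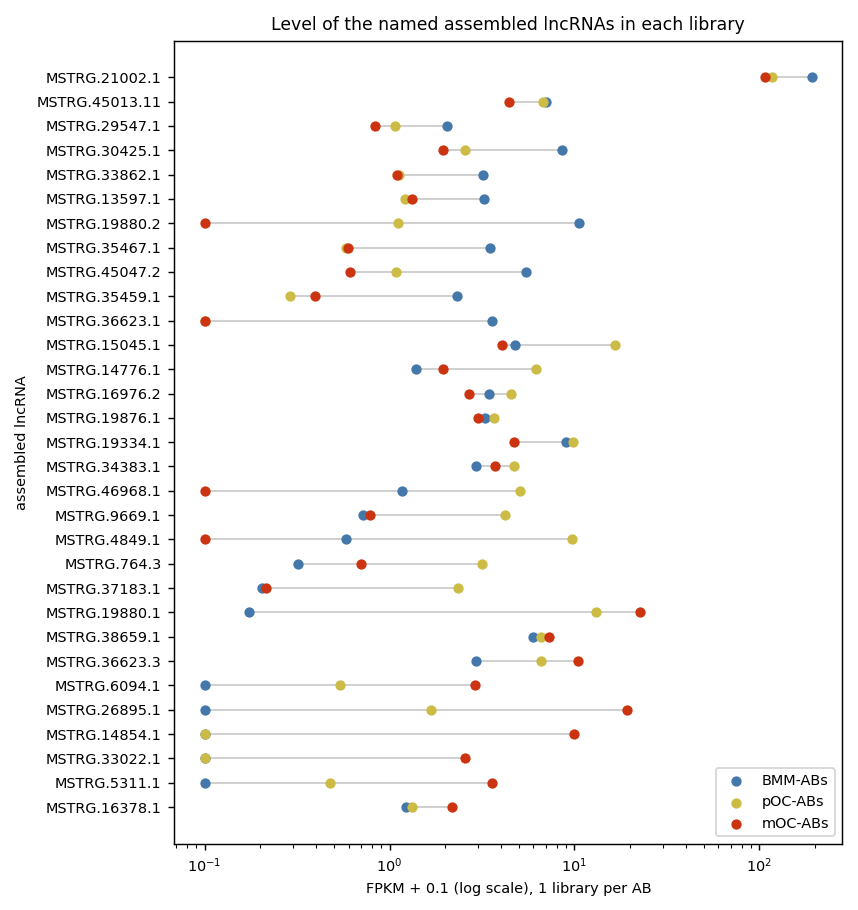
FPKM + 0.1 (log axis) of the 31 named assembled lncRNAs in each library, ordered by the AB with the highest level. MSTRG.21002.1 stands alone above an FPKM of 100 in all 3, and points at 0.1 are lncRNAs without reads in that library.

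Transcript models of 1 locus often had different profiles. Of the 243 loci 14 had several transcripts, 32 in all, and at 12 of the 14 the transcripts peaked in different ABs. Over all assembled lncRNAs the peak fell to the ABs in 48.3%, 33.7% and 18.0%, so models of different loci also often peak apart. How often they do was not counted. Some of the 32 had few reads, such as MSTRG.18021.2 with 8. At MSTRG.19880 (chr17:14976828-15008570) the first transcript had 1, 163 and 277 reads and the second 110, 10 and 0. The locus as a whole had 111, 173 and 277. The ratio of the first in G2 had an interval of 5.76 to 13.56 on the log2 scale with 1 read in BMM-ABs. With its 0 reads set to 3, the second was 33.3-fold lower in mOC-ABs than in BMM-ABs, and its G2 interval lay below -4.73.

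The MSTRG.36623 locus (chr5:79792558-80030763) had 4 transcripts whose sum was 93, 92 and 95 reads. Within that sum MSTRG.36623.1 had 25, 0 and 0 reads, and MSTRG.36623.3 had 27, 58 and 90. At MSTRG.14776 the first transcript had 45, 199 and 59 reads and the second 77, 33 and 0. The call of an AB-restricted transcript at these loci is thus a call on the transcript model, not on the locus. How the reads were divided among overlapping models is not given in the sources used here.

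**Figure D5:**
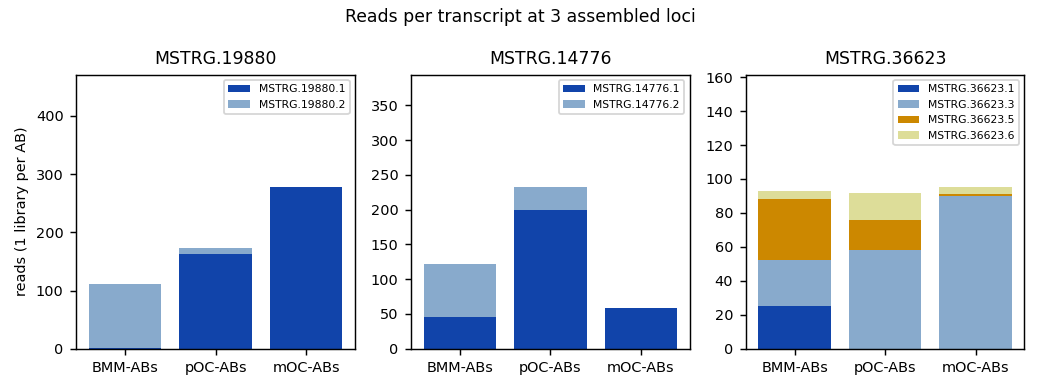
Reads per library on each transcript of the loci MSTRG.19880, MSTRG.14776 and MSTRG.36623, stacked. The sum at MSTRG.36623 is 93, 92 and 95, while its transcripts differ between the libraries.

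Neighbouring members formed 5 groups of at least 3 loci. Those in Ptprj and Cdk14 are given above, and 5 members around Ptafr, Smpdl3b and Eya3 (chr4:132562858-132748703) had 68, 91 and 70 reads. The other 2 groups lay among many gene models of the Gm and Rik series. On chromosome 17, 6 members of 5 loci lay within chr17:14962082-15051265 around Gm3417, 9030025P20Rik, Gm3448 and Gm3435, and had 222, 297 and 355 reads. MSTRG.19876.1 (chr17:14962082-14995045) in this group was steady at 70, 73 and 58. On chromosome 8, 8 members lay within chr8:19694859-20593610 and had 354, 262 and 164 reads. Among these were MSTRG.45013.11 (chr8:19694859-20150676), with 156, 139 and 88 reads and a summed intron length of 454057 bases, and MSTRG.45047.2 (chr8:20281307-20409071), with 35, 6 and 3. Reads that fit several copies of a gene could be divided among them by the counting, so the values of these 14 members are uncertain.

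The steady members also included MSTRG.16976.2 (chr15:80096588-80098989) in Syngr1, a synaptic vesicle protein gene, with 88, 109 and 62 reads, and MSTRG.34383.1 (chr4:132562858-132564101) with 32, 49 and 37. The latter ended 34 bases inside Ptafr, the gene of the platelet-activating factor receptor, whose own reads were 304, 131 and 196. Steady here means a low ratio of the highest to the lowest FPKM, and the counting intervals did exclude equal levels for MSTRG.34383.1 in G1 (0.04 to 1.41) and for MSTRG.16976.2 in G3 (-1.25 to -0.31). The shortest members measured 208 bases. MSTRG.16378.1 (chr15:43815688-43820777) had 3, 3 and 5 reads, and no difference was detectable at this depth, and MSTRG.28377.1 (chr2:153264359-153281632), over Pofut1, a fucosyltransferase gene, had 0, 0 and 9.

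Longer members tended to have lower ratios against BMM-ABs. Over the 192 members with at least 20 reads, which share libraries and depth, the Spearman correlation of length with the log2 ratio was -0.31, -0.32 and 0.03 for G1, G2 and G3. This is a description across transcripts. Intronic members, the class with the lowest ratios, were also the longest with a median of 752.5 bases against 568.5 for intergenic ones, and the part of length in their ratios was not tested.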

How the data were processed

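The authors deposited, per lncRNA and mRNA transcript, a read count and FPKM in each of 3 libraries (poly-T bead selection and paired-end NovaSeq sequencing, per the study's methods). Their circRNA table holds a count of junction reads. The submitters' processing notes name FastQC, HISAT2, StringTie and GRCm38. How the counting treated strand and shared reads is not given in the sources used here. By the ratio of counts to FPKM, the lncRNA FPKM was scaled to the reads of both tables and the mRNA FPKM to its own.

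Members were the identifiers starting with MSTRG. The members and the gene lists were chosen with earlier results of these data known. Loci were compared with GENCODE M21 gene spans and exons (at least 1 base), and with RefSeq GRCm38.p6 genes and promoters, from which the promoter sequences were read, while the Rpph1 sequence is that of GENCODE M21. Ratios used the deposited FPKM, without a pseudocount for the 2-fold counts and with 0.1 for log2 values. Host genes were summed over transcripts. Intervals are exact binomial (Clopper-Pearson, 95%) for ratios of reads and Wilson for shares, and they cover counting error only, as reads carry no molecular identifiers. In each library 3 reads are 2.36e-05% to 2.60e-05% of all. With 1 library per AB no test between conditions was run. The code for the interval and the call was tested on simulated data.

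Named members were the 10 with the most reads, the 5 most restricted to each AB with at least 20 reads, the 5 steadiest with at least 100 reads, the 5 intergenic ones with the most reads, the longest and the shortest. Any overlapping a listed gene was to be named too, and there were none. Members named for genes that held several, MSTRG.17085.1 and MSTRG.37064.1, and those in Runx1, Mitf, Tgfbr2 and Gas7 were chosen after their values were seen. The alternatives were another scaling (median-of-ratios size factors or the mRNA total), a minimum of 20 reads, a pseudocount of 1, summed loci and the interval condition, with others for detection, shares, class and host genes. Python 3.11.15, pandas 2.3.3, numpy 2.4.6, scipy 1.17.1 and matplotlib 3.10.9 were used.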

Additional observations from a re-analysis of the deposited data

Results flagged for a closer look

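Back-splice junctions, the joins that mark circular RNAs, were outside the comparisons above, and some had a span that held an assembled lncRNA. There were 8 such junctions over 5 assembled lncRNAs, with 31 junction reads for BMM-ABs, 16 for pOC-ABs and 13 for mOC-ABs, above the limit of 3 reads that a count of 0 allows. The junction reads of all circRNAs were 3413, 2380 and 4014. Junctions of Fnip2 around MSTRG.30425.1, of Eya3 around MSTRG.34415.1 and of Fndc3b around MSTRG.29543.1 were among them, and the Eya3 junction had 9, 4 and 4 reads. The only junction that lay inside the locus of an assembled lncRNA, MSTRG.13024.1, had 2, 0 and 0 reads, which is under that limit. Whether any of these lncRNAs is part of a circular RNA was not tested.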

How the results depend on the processing

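Median-of-ratios size factors raised every log2 ratio by 0.26 in G1, 0.36 in G2 and 0.10 in G3, and the G2 median of assembled lncRNAs moved from -1.06 to -0.65. The medians over all members changed sign under no alternative (those of the classes were not recomputed), and the counts past 2-fold stayed within 1.5 times under both scalings, with loci summed, and without the chromosome 8 and 17 groups or introns under 70 bases (the last 2 chosen after seeing the data). With at least 20 reads (192 members), 41, 20 and 29 members were higher in the comparisons in order, 31 members were restricted to pOC-ABs and 13 to mOC-ABs, and 16 intronic ones were lower in G3. Fewer members enter there. A pseudocount of 1, which shrinks low ratios, gave 39 higher and 58 lower in G1, 21 and 72 in G2 and 24 higher in G3, 33, 32 and 13 restricted to the ABs in order, and a G2 median of -0.58. The interval condition gave 21 higher in G2, 29 in G3 and 14 restricted to mOC-ABs. As a share of both tables the members' reads were 0.0653%, 0.0516% and 0.0383%, without the 10 lncRNAs with the most reads 1.56%, 1.29% and 1.08%, and without MSTRG.21002.1 (chosen after seeing the data) 0.203%, 0.125% and 0.103%, each still highest in BMM-ABs and lowest in mOC-ABs. Detection, locus class and the correlation with host genes kept within their limits under their alternatives. No paired analysis was possible because each AB had 1 library, and for the same reason no library could be left out. Members under 20 reads (69 of 261) allow only large differences to be seen.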
